A study of Mus musculus with 12 samples.

Results

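The miRNAs described here are the guide arms mmu-miR-10a-5p, mmu-miR-10b-5p, mmu-miR-99a-5p, mmu-miR-99b-5p and mmu-miR-100-5p, with mmu-miR-10b-3p as the other arm of the miR-10b hairpin. The prefix mmu, for mouse, is left out below. They were chosen by name, and all 6 were found among the 932 rows of the deposited table, 730 of which carry a mouse miRNA name. The libraries are small RNA sequencing libraries of mitochondria isolated from mouse heart, 6 of wild-type (WT) and 6 of db/db mice. The db/db mutation disables the leptin receptor gene, and the mice become obese and diabetic. The labels give tissue, genotype and fraction, with no further allele, treatment, strain or age. They number the samples of a genotype from 1 to 6 without saying whether each number was its own animal. The p-values therefore reflect how these samples varied, and that variation could be technical. No whole-heart or cytosolic fraction was compared, so the values say nothing of where in the cell these miRNAs lie.

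A miRNA is cut from a hairpin precursor whose 2 arms (5p and 3p) can each give a mature RNA of about 22 bases. One arm, the guide, is usually kept by an Argonaute protein, and its seed, bases 2 to 8, pairs with target mRNAs. The miR-10 family is one of the oldest in animals. Its miR-10 branch is encoded inside Hox gene clusters, and its miR-99 and miR-100 branch is transcribed with members of the let-7 and miR-125 families. Targets described for miR-99 and miR-100 include the kinase mTOR and the IGF1 receptor, and miR-10a and miR-10b have been studied in endothelial cells.

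The mature sequences, shown because the seed divides the family and single bases separate its closest members, came from RefSeq (GRCm38.p6), which held all 6. Capitals mark the seed.
mmu-miR-10a-5p: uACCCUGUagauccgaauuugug
mmu-miR-10b-5p: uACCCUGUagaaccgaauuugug
mmu-miR-99a-5p: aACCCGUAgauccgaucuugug
mmu-miR-99b-5p: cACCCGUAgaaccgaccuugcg
mmu-miR-100-5p: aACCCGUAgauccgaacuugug
mmu-miR-10b-3p: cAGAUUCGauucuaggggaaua
The 5 guide arms fall into 2 seed groups. ACCCUGU was shared by miR-10a-5p and miR-10b-5p alone among the mature mouse miRNAs of the RefSeq table, and ACCCGUA by miR-99a-5p, miR-99b-5p and miR-100-5p alone. With positions counted from 1 at the 5′ end, miR-10a-5p and miR-10b-5p differ at 1 base, U12A. miR-99a-5p and miR-100-5p also differ at 1 base, U16A. Between miR-99a-5p and miR-99b-5p there are 4 substitutions, A1C, U11A, U16C and U21C. All of these lie outside the seed. Across the 2 seed groups the likeness continues past the seed, since bases 7 to 17 of miR-10a-5p are the same 11 letters as bases 6 to 16 of miR-100-5p. How a read that fits both of a pair with 1 mismatch was assigned is not given in the sources used here, so the split within miR-10a and miR-10b, and within miR-99a and miR-100, is uncertain to that extent.

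The genes lie on 5 chromosomes in GRCm38, a build earlier than the GRCm39 of the deposited values, and all are on the plus strand. Mature miR-10b-5p lies at chr2:74726074-74726096, in introns of Hoxd3 and Hoxd4 in GENCODE M21, and miR-10a-5p at chr11:96317186-96317208, between genes with Hoxb4 and Hoxb3 nearest. miR-99a-5p lies at chr16:77598940-77598961 in an intron of the noncoding Mir99ahg, which also holds let-7c-1 and miR-125b-2. miR-99b-5p lies at chr17:17830194-17830215 in an intron of Spaca6, followed by let-7e and miR-125a. miR-100-5p lies at chr9:41531437-41531458 in introns of 2 noncoding genes on its strand, which also hold let-7a-2 and miR-125b-1.

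Values are in RPM, reads per 1000000 reads of all listed miRNAs in a library, with no length term. Recovered library totals ranged from 412749 to 1382046 reads, so 1 read was worth 0.724 to 2.42 RPM. A miRNA with 0 reads could still have had an expected count of up to 3 reads, which is 2.17 to 7.27 RPM. That limit covers counting error alone, because reads copied by PCR are not separate molecules. The 4 cardiac and skeletal muscle miRNAs taken as markers (miR-1a-3p, miR-133a-3p, miR-208a-3p and miR-499-5p) summed to 337987 to 439537 RPM per library. That sum was mostly miR-133a-3p and miR-1a-3p, with means of 332510 and 58305 RPM, and these were abundant in every library. In contrast, miR-208a-3p averaged 49.1 RPM and was at 1.38 RPM, or 1 read, at its lowest. WT library 4 and db/db library 6 had the fewest reads. With both left out no member passed the limma test, and the log2 fold changes between genotypes were -0.21 for miR-10a-5p, -0.68 for miR-10b-5p, 0.07 for miR-99a-5p, 0.00572 for miR-99b-5p, -0.15 for miR-100-5p and 1.78 for miR-10b-3p.

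The 5 guide arms together made up 2.73% ± 0.362 of reads in WT libraries and 2.87% ± 0.203 in those of db/db hearts (mean ± SD, n = 6 for each). The miR-99 seed group held 93.5% of that, as the mean over 12 libraries, and the miR-10 seed group 6.53%. In all 12 libraries the order of levels was the same: miR-99a-5p, miR-99b-5p, miR-100-5p, miR-10a-5p, miR-10b-5p and, far below, miR-10b-3p. The ranges of neighbours in this order did not overlap over the 12 libraries. The steps, as ratios of mean RPM, were 3.54 from miR-99a-5p to miR-99b-5p, 1.67 to miR-100-5p, 2.22 to miR-10a-5p and 3.10 to miR-10b-5p. Ligation favours some miRNA ends over others, so a ratio of RPM between 2 miRNAs need not equal their ratio in the sample.

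**Figure D1:**
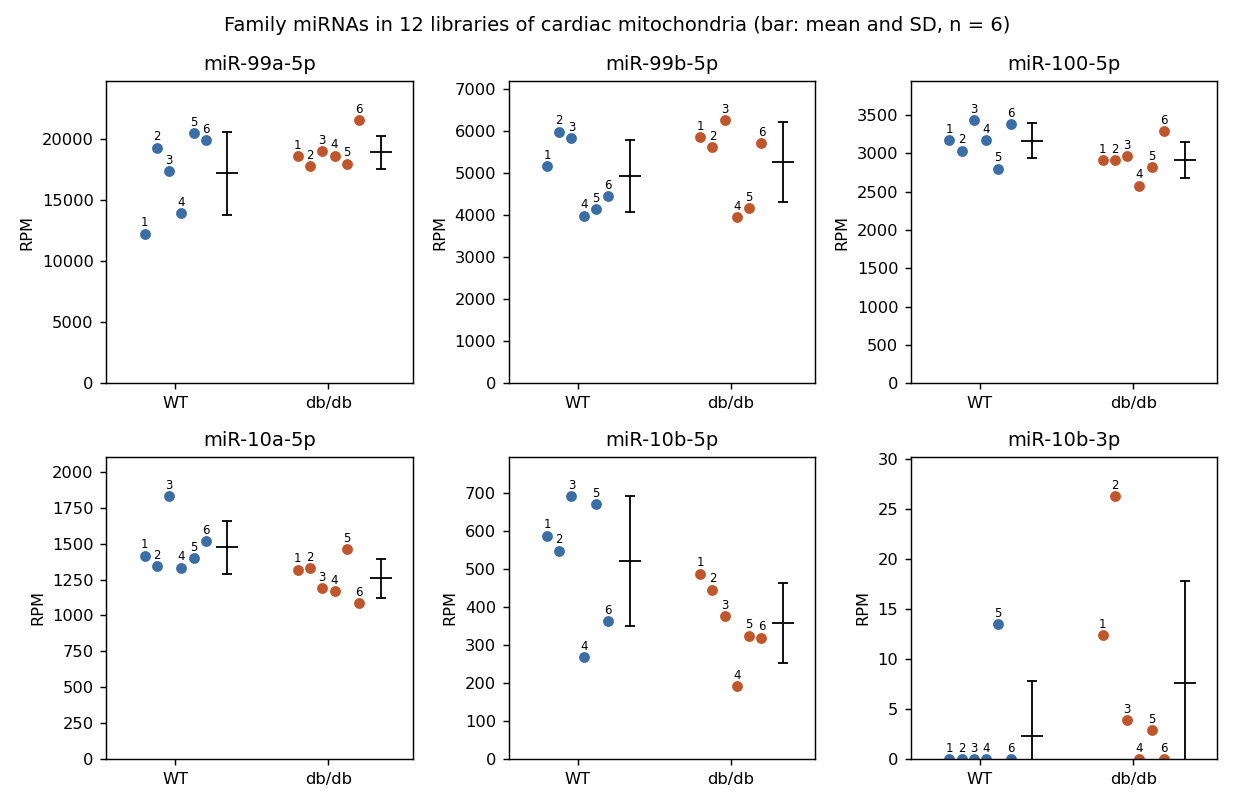
RPM of each family miRNA (vertical axis, from 0) in the 6 WT and 6 db/db libraries; numbers are sample numbers and bars the mean and SD, n = 6, with the bars of miR-10b-3p ending at the axis. All 6 db/db points of miR-10b-5p lie below the WT median of 569 RPM, while the WT points reach down to 268.

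Whether any of these miRNAs differed between hearts of the diabetic model and its control was the question of the db/db and WT comparison. No family member passed the test, limma on log2(RPM + 1) for the 646 rows that averaged 1 RPM or more, with Benjamini-Hochberg adjustment over all of them. All 6 members passed that filter, and 0 of 6 were called, where 0.155% of the rows tested were called. At an unadjusted p under 0.05 there was 1 of the 6, miR-10b-5p, where 8.98% of the rows tested had such a p, and 4.64% had one with a lower level in db/db. By edgeR on the recovered reads the counts were again 0 of 6 (0.464% of rows) and, unadjusted, 1 of 6 (24.6% of rows). WT and db/db ranges overlapped for each of the 6, and they were apart for 0.929% of rows. Values below 0 were found for 3 of 6 members, with a median log2 fold change of -0.01, against 52.3% of rows and a median of -0.04.

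miR-99a-5p, the leading member of the family here, ranked 11th to 20th among all miRNAs of a library. In WT it ranged from 12229 RPM through a median of 18304 to 20463 RPM, and in db/db from 17725 through 18587 to 21478 RPM. WT libraries 1 and 4 lay below all others, and the db/db libraries sat within the upper part of the WT range except library 6, which was above it. Means were 17174 ± 3393 RPM in WT libraries and 18887 ± 1351 RPM in those of db/db (mean ± SD, n = 6 per genotype), and the log2 fold change was 0.16 ± 0.13 (SE; 95% interval -0.10 to 0.42; limma adjusted p = 0.717). Without WT library 1 the log2 fold change was 0.07, without WT library 4 it was 0.10, and with both low-depth libraries left out it was 0.07.

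miR-99b-5p, which shares the seed but comes from another cluster, ranged from 3981 RPM through a median of 4803 to 5983 RPM in WT. In db/db it ranged from 3944 through 5661 to 6246 RPM. Libraries 4 and 5 of both genotypes and WT library 6 were the 5 lowest, all at or under 4442 RPM, and the other 7 were all at or above 5163 RPM, so the gap ran across genotypes. The log2 fold change was 0.09 ± 0.14 (SE; 95% interval -0.19 to 0.37; limma adjusted p = 0.791). With 1 library left out it ranged from 0.03 (WT library 4) to 0.17 (db/db library 4), and with both low-depth libraries left out it was 0.00572 (limma adjusted p = 0.992).

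miR-100-5p was the steadiest member. It ranged from 2800 RPM through a median of 3171 to 3429 RPM in WT and from 2578 through 2912 to 3290 RPM in db/db libraries. Its highest value was 1.33 times its lowest, with a coefficient of variation of 8.41% over the 12 libraries. Its residual SD of 0.11 on the log2 scale was the third smallest of the 64 rows averaging 1000 RPM or more, where the median was 0.25. In the same ranking, from the smallest SD, miR-10a-5p was 11th, miR-99a-5p 27th and miR-99b-5p 36th. The log2 fold change of miR-100-5p was -0.12 ± 0.14 (SE; 95% interval -0.39 to 0.15; limma adjusted p = 0.724).

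Both members with the miR-10 seed had lower means in db/db than in WT libraries, without passing the test. miR-10a-5p ranged from 1333 RPM through a median of 1409 to 1831 RPM in WT and from 1085 through 1254 to 1463 RPM in db/db. Of the db/db libraries 5 lay below the lowest WT library, and db/db library 5 lay among the WT values. Means were 1474 ± 187 RPM and 1259 ± 137 RPM (mean ± SD, n = 6 per genotype), and the log2 fold change was -0.23 ± 0.16 (SE; 95% interval -0.54 to 0.08; limma adjusted p = 0.717).

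miR-10b-5p varied most among the guide arms, with 3.60 times between its highest and lowest library and a coefficient of variation of 36.4%. It ranged from 268 RPM through a median of 569 to 693 RPM in WT and from 193 through 351 to 488 RPM in db/db libraries. The db/db libraries, 6 of 6, fell under the WT median and 4 WT libraries lay above every db/db library, while WT libraries 4 and 6 fell among the db/db values. These levels rested on 132 to 647 reads a library. Means were 522 ± 171 RPM in WT libraries and 358 ± 105 RPM in those of db/db (mean ± SD, n = 6 per genotype), and the log2 fold change was -0.53 ± 0.23 (SE; 95% interval -0.98 to -0.07). The unadjusted limma p was 0.0232, 28th of 646, and the limma adjusted p 0.504, so the difference did not pass over all miRNAs. It did not pass by edgeR either (log2 fold change -0.51, edgeR adjusted p = 0.135). In bulk preparations such as these, fewer cells of a type and less RNA per cell cannot be told apart.

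Levels of markers of cell types are given here, and their part in the miR-10b-5p values was not tested. The 4 muscle miRNAs, whose sums are given above, had 3 of 4 log2 fold changes below 0. miR-133a-3p stood at 0.07, and miR-208a-3p, which fell to 1 read at its lowest, at -1.34 ± 0.55 (SE; limma adjusted p = 0.504). The 2 endothelial miRNAs (both arms of miR-126a) summed to 18852 to 29569 RPM in WT and 15588 to 25095 RPM in db/db libraries, and both had values below 0. The 4 smooth muscle and fibroblast miRNAs summed to 33026 to 46234 RPM in WT and 23978 to 38345 RPM in db/db, with 2 of 4 below 0. That sum was mostly miR-143-3p, with means of 29619 RPM in WT and 21295 in db/db. Log2 fold changes were -0.48 for miR-143-3p (limma adjusted p = 0.0869) and -0.33 for miR-145a-5p. They were 0.06 for miR-199a-3p and 0.45 for miR-214-3p. The 4 leukocyte miRNAs summed to 3225 to 5087 RPM in WT and 2906 to 6701 RPM in db/db, with 2 of 4 below 0. That sum was mostly miR-150-5p, with means of 3570 RPM in WT and 4196 in db/db. The myeloid miR-223-3p, named after its values were seen, ranged from 306 to 478 RPM in WT and from 175 to 289 RPM in db/db libraries. These ranges do not overlap, as was so for 0.929% of the rows tested. The log2 fold change of miR-223-3p was -0.72 ± 0.22 (SE; limma adjusted p = 0.109). Those of the other leukocyte miRNAs were 0.20 ± 0.16 (miR-150-5p), 0.16 ± 0.40 (miR-142a-5p) and -0.91 ± 0.98 (miR-142a-3p). The 3 red blood cell miRNAs summed to 9900.3 to 21106 RPM in WT libraries and 18260 to 30614 RPM in those of db/db, with none of 3 below 0. That sum was mostly miR-486a-5p, with means of 15389 RPM in WT and 21760 in db/db. miR-451a ranged from 850 to 1685 RPM in WT and from 290 to 3721 RPM in db/db libraries. Of these lists no member passed the limma test, and none was at 0 in most libraries. Liver miR-122-5p was at 0 in at least 6 libraries and reached 27.5 RPM. The 2 neural miRNAs (miR-124-3p and miR-9-5p) summed to 47.4 to 132 RPM in WT and 53.1 to 160 RPM in db/db, with 1 of 2 below 0.

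**Figure D2:**
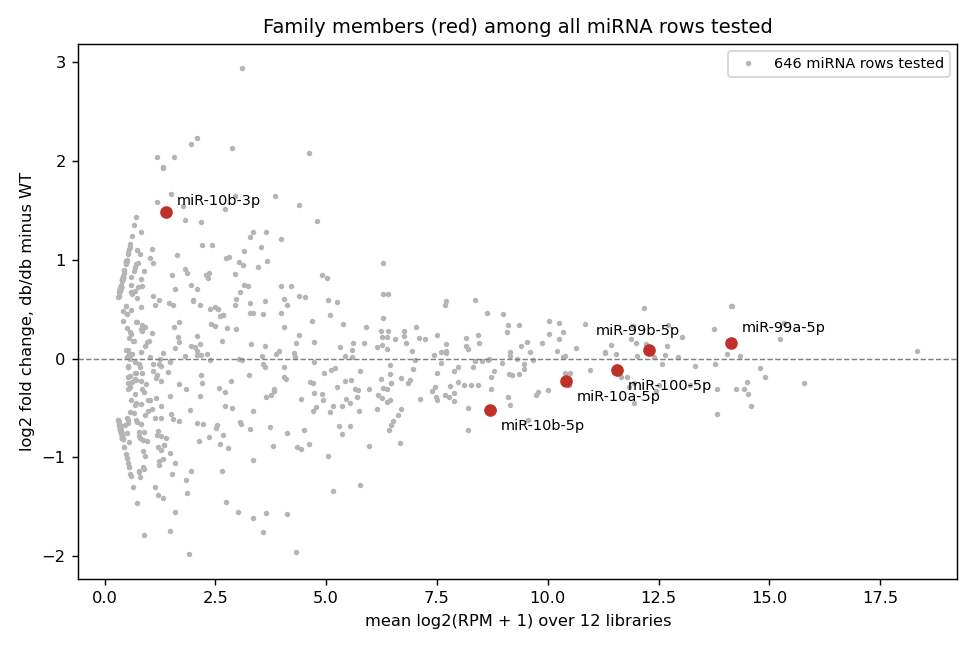
Log2 fold change, db/db minus WT, against mean log2(RPM + 1) for the 646 rows tested (grey) and the 6 family members (red). The 5 guide arms lie between -0.53 and 0.16, and miR-10b-3p lies among low-count rows where fold changes spread widely.

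The passenger arms, which are usually degraded after the hairpin is cut, were scarce for all 5 hairpins. miR-10b-3p was above 0 in 1 of 6 WT libraries (library 5, 13.5 RPM) and 4 of 6 db/db libraries, with a highest value of 26.3 RPM in library 2. In all it had 48 reads, 13 in WT and 35 in db/db. The other 5 WT libraries and db/db libraries 4 and 6 had 0 reads, which allows an expected count of up to 3 each. In db/db libraries 3 and 5 miR-10b-3p had only 3 and 4 reads, close to that limit. Its log2 fold change was 1.48 ± 1.00 (SE; 95% interval -0.51 to 3.48; limma adjusted p = 0.717). This value depended on the pseudocount, with 3.02 at 0.1 RPM and 0.44 at 10 RPM. With so few reads neither a size nor a direction is read from it. edgeR gave 1.54 (adjusted p = 0.683). The guide arm, miR-10b-5p, stood at -0.53, and the signs of the 2 arms are not set against each other.

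Hairpins with the miR-99 seed had unlike shares of the 3p arm. Of the reads of both arms summed over the 12 libraries, the 3p arm held 0.0173% for miR-99a (29 of the 3p arm against 168026 of the 5p arm), 0.125% for miR-100 (35 against 27940) and 1.17% for miR-99b (547 against 46244). For the miR-10 seed it held 0.663% for miR-10a (86 against 12882) and 1.16% for miR-10b (48 against 4103). The medians over single libraries had the reverse order. They were 0.453% for miR-10a, with its 3p arm found in 10 libraries, and 0% for miR-10b, with its 3p arm found in 5. miR-99b-3p was the only 3p arm of the 5 hairpins found in all 12 libraries, at 0.254 to 2.33% of its hairpin. miR-99a-3p, from the most abundant hairpin, was found in 5 of 12 and never exceeded 0.130%, so the ranges of these 2 hairpins did not overlap. None of the 4 other 3p arms passed the limma test, with 3 of 4 log2 fold changes below 0 and a median of -0.50. miR-99b-3p (-0.21 ± 0.46) and miR-10a-3p (0.43 ± 0.99, SE) changed sign under some of the settings tried.

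**Figure D3:**
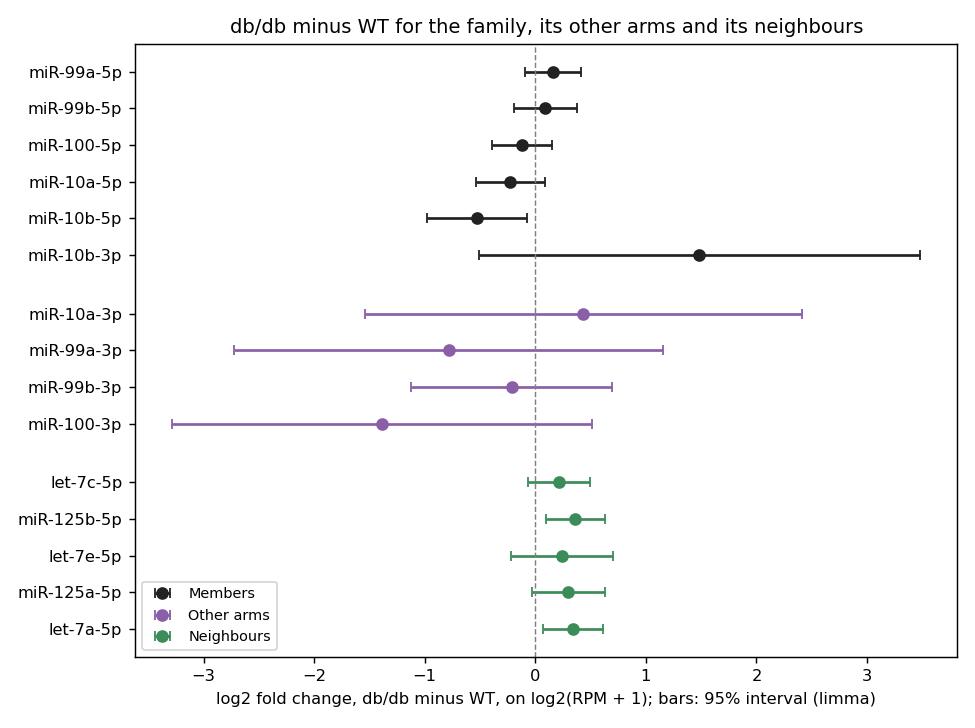
Log2 fold change, db/db minus WT, on log2(RPM + 1) with 95% limma intervals for the 6 members (black), the other arms (purple) and the guide arms of neighbouring hairpins (green). The intervals of 5 members cross 0, that of miR-10b-5p ends at -0.07, and the intervals of the low 3p arms are the widest.

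Ratios within a library depend on the scaling to a library total only through the pseudocount of 1 RPM, which matters where reads are few. Between genotypes 6 ratios were compared by exact permutation with adjustment over the 6. The ratio of miR-10b-5p to miR-10a-5p, which differ at 1 base, ranged from 0.201 to 0.480 in WT and from 0.165 to 0.370 in db/db. On the log2 scale it averaged -1.56 ± 0.50 in WT and -1.86 ± 0.44 in db/db (SD, n = 6 per genotype), lower by 0.30 on average and below the WT median in 6 of 6 db/db libraries (exact permutation test, two-sided, p = 0.292, adjusted 0.584). Libraries 4 and WT library 6 had the low ratios, along with db/db library 5. miR-10a-5p thus made up 67.6 to 83.2% of the miR-10 seed group in WT and 73.0 to 85.8% in db/db libraries.

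The ratio of miR-99a-5p to miR-100-5p, the other pair that differs at 1 base, was spread in WT and narrow in db/db libraries. It ranged from 3.86 to 7.31 in WT and from 6.09 to 7.21 in db/db. Its log2 value averaged 2.42 ± 0.34 in WT and 2.70 ± 0.08 in db/db (SD, n = 6 per genotype), higher by 0.28, with 6 of 6 db/db libraries above the WT median (exact permutation test, two-sided, p = 0.0909, adjusted 0.273). Without WT library 5, the highest of all 12, the difference was 0.37 and the adjusted p 0.0260 (exact permutation test, two-sided). In the other 15 of 16 alternatives the ratio did not pass. For the alternative that blocked by sample number, so few sign assignments exist that passing was hardly possible. With any other single library left out the adjusted p was 0.234 to 0.545 by the same test. The difference in spread was not tested.

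The other ratios also did not pass. miR-99b-5p to miR-99a-5p averaged -1.80 ± 0.39 in WT and -1.86 ± 0.27 in db/db on the log2 scale (SD, n = 6 per genotype; exact permutation test, two-sided, adjusted p = 0.831). The log2 ratio of the miR-10b arms, 5p to 3p, averaged 8.31 ± 1.45 in WT and 6.30 ± 1.56 in db/db (SD, n = 6 per genotype). With the 3p arm at 0 in 7 of 12 libraries, the ratio there is the 5p level over the pseudocount, so no direction is read from it. Its adjusted p was 0.260, and 0.273 or 0.0779 with a pseudocount of 0.1 or 10 (exact permutation test, two-sided). Without WT library 5 it was 0.0260 by the same test. The 3p arm was then at 0 in every WT library, so that value rests on the pseudocount and on 1 library.

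**Figure D4:**
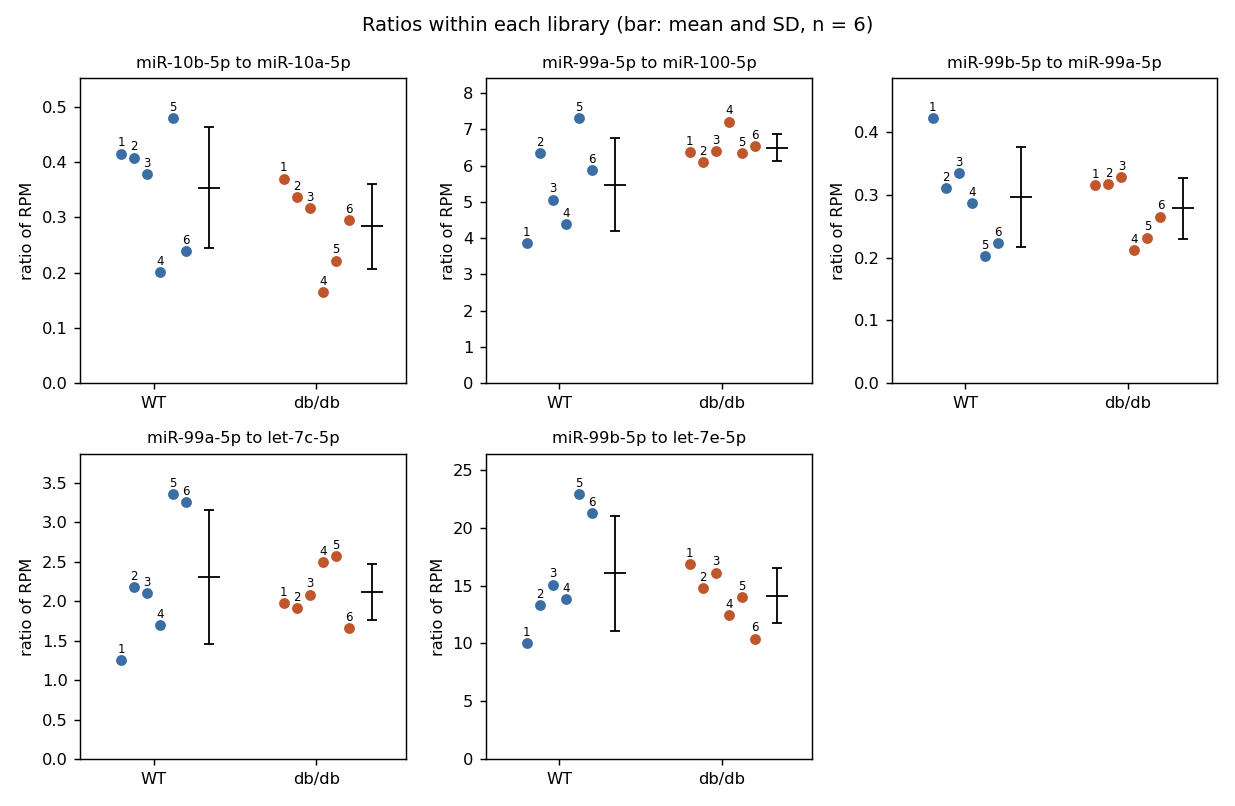
Ratio of RPM within each library (vertical axis, from 0) for 5 pairs, WT and db/db; numbers are sample numbers and bars the mean and SD, n = 6. For miR-99a-5p to miR-100-5p the db/db libraries lie between 6.09 and 7.21 and the WT libraries between 3.86 and 7.31.

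The hairpins transcribed with the miR-99 and miR-100 hairpins gave guide arms of the let-7 and miR-125 families, both known from work on developmental timing and differentiation. All 5 (let-7c-5p, miR-125b-5p, let-7e-5p, miR-125a-5p and let-7a-5p) had log2 fold changes above 0, with a median of 0.30, and 0 of 5 passed the limma test. miR-125b-5p, the most abundant, had a mean of 36665 ± 6657 RPM in WT libraries and of 47314 ± 10850 RPM in db/db (SD, n = 6 per genotype). Its log2 fold change was 0.36 ± 0.13 (SE) with a limma adjusted p of 0.351. let-7a-5p stood at 0.34 ± 0.14 (SE; limma adjusted p = 0.504). DESeq2 on the recovered reads called these 2 (adjusted p = 0.0496 each) among 8.97% of the rows it gave an adjusted p. miR-125b-5p, let-7c-5p and let-7a-5p are each encoded by more than 1 gene, so their reads cannot be assigned to 1 cluster. Of the 6 other arms of these neighbours 5 were listed, and none passed.

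Guide arms encoded in the same cluster did not keep a fixed ratio from library to library. For let-7c-5p, reads can also come from a gene outside the miR-99a cluster. miR-99a-5p was 1.25 to 3.36 times let-7c-5p in WT and 1.65 to 2.57 times in db/db libraries. Its log2 ratio averaged 1.12 ± 0.55 in WT and 1.07 ± 0.24 in db/db (SD, n = 6 per genotype; exact permutation test, two-sided, adjusted p = 0.831). miR-99b-5p was 10.0 to 22.9 times let-7e-5p in WT and 10.4 to 16.8 times in db/db, although the 2 hairpins lie next to each other. The log2 ratio averaged 3.94 ± 0.45 in WT and 3.80 ± 0.26 in db/db (SD, n = 6 per genotype; exact permutation test, two-sided, adjusted p = 0.740). In both pairs WT libraries 5 and 6 had the highest ratios: let-7c-5p was at 6086 and 6097 RPM there, its lowest values, while miR-99a-5p was at 20463 and 19851 RPM. let-7e-5p was at 181 and 209 RPM, also its lowest, and miR-99b-5p at 4147 and 4442 RPM.

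**Figure D5:**
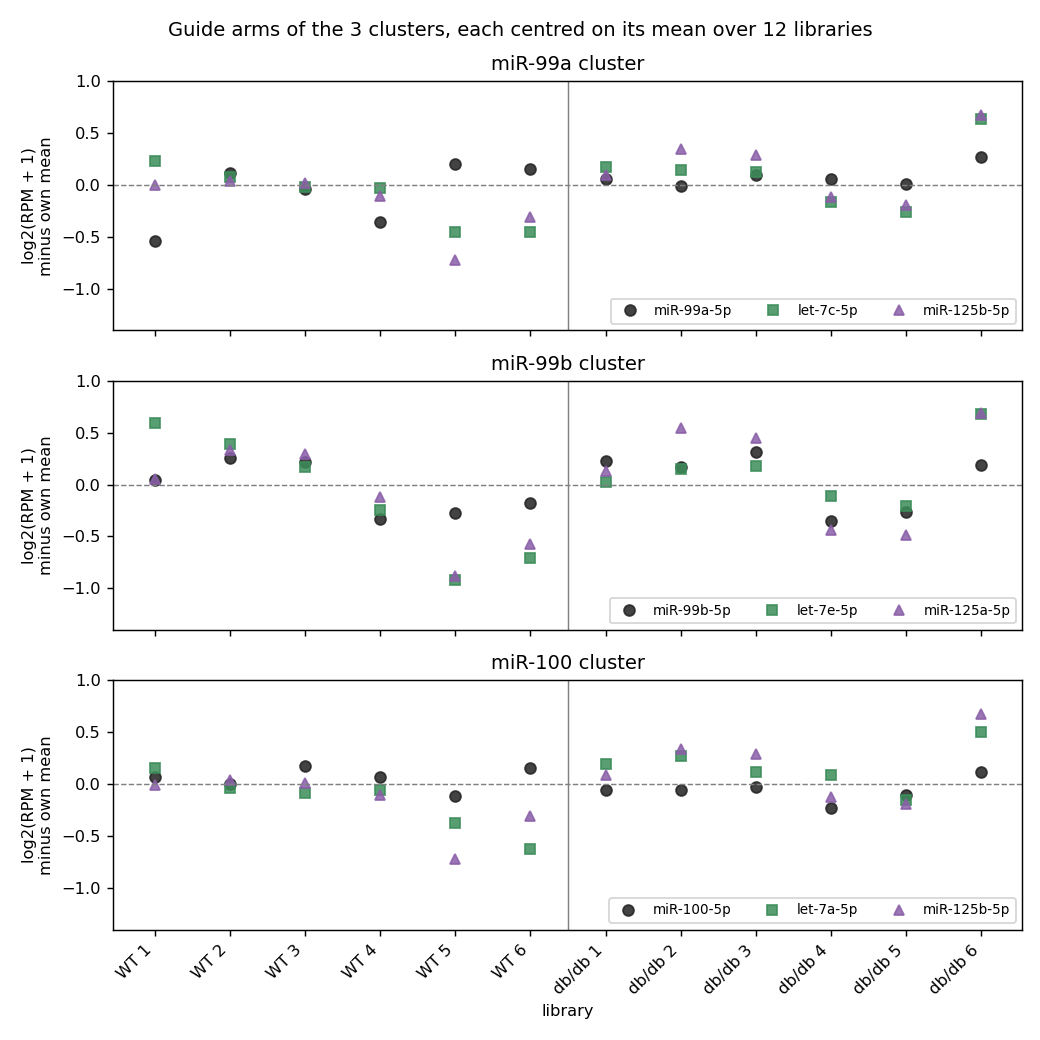
log2(RPM + 1) of each guide arm minus its mean over the 12 libraries, by library, for the miR-99a, miR-99b and miR-100 clusters. In WT libraries 5 and 6 the let-7 and miR-125 arms lie below 0 in all 3 panels while miR-99a-5p lies above it, and in db/db library 6 all arms lie above 0.

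The likeness of profiles was measured, as a description, by the mean absolute difference between profiles centred on their own means over the 12 libraries, among 146 named miRNAs with a mean of at least 100 RPM. All profiles share libraries, depth and scaling. A flat profile lies close to other flat ones by this measure. The guide arms nearest in sequence were not nearest in profile. From miR-10a-5p, miR-10b-5p was 112th of 145 (0.39), and miR-100-5p, of the other seed group, was the first (0.12), before miR-30c-5p and miR-378c. miR-10b-5p had miR-342-3p (0.22), miR-146a-5p (0.26) and miR-103-3p (0.33) nearest, and miR-10a-5p was 14th.

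miR-99a-5p was closest to miR-26a-5p (0.12), then miR-27b-3p and miR-378a-3p (0.17 each), with its neighbours let-7c-5p and miR-125b-5p 61st and 63rd. miR-99b-5p was closest to miR-103-3p (0.14), miR-150-5p (0.15) and miR-139-5p (0.15). Its own neighbours miR-125a-5p and let-7e-5p were 36th and 48th, while let-7c-5p, encoded only in part by the miR-99a cluster, was 10th. miR-100-5p was closest to miR-204-5p and miR-191-5p (0.11 each) and to miR-10a-5p (0.12), with let-7a-5p 58th and miR-125b-5p 63rd. From miR-100-5p, miR-99b-5p was 34th and miR-99a-5p 39th.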

How the data were processed

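Small RNA of heart mitochondria was measured in 12 libraries (6 WT, 6 db/db). The authors deposited 1 table under the name TPM. Every column adds up to 1000000, and in a column all values are multiples of a single step, that of 1 read. The deposited values were therefore read as RPM, and with 1 total per column 100% of them gave whole reads (tolerance 0.01 of a read). The submitters' processing notes name the build GRCm39. The sources used here do not give the aligner or the miRNA annotation. The members and lists were chosen with earlier results of these data known.

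The main test was limma 3.58.1 (R 4.3.3, abundance trend) on log2(RPM + 1) for rows averaging 1 RPM or more, genotype alone in the model, adjusted p called under 0.05. The planned design assumed TPM, and its log-scale test was kept. Ratios within libraries were compared by an exact permutation test over all 924 ways to assign the genotypes. Alternatives on whole reads were edgeR 4.0.16 (quasi-likelihood test, TMM) and DESeq2 1.42.0. Others were the pseudocount, filter, scaling, trend, replicate block, a factor for sample numbers (1 to 3, 4 to 6), and libraries left out. Named miRNAs were the members, their other arms, cluster neighbours, markers and, for each guide arm, the 3 nearest profiles. The scripts were tested on simulated data. Sequences came from RefSeq and host genes from GENCODE M21 (both GRCm38).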

Additional observations from a re-analysis of the deposited data

Results flagged for a closer look

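In each genotype, 21 quantities (6 members, 4 other arms, 5 neighbours and 6 log2 ratios) were checked for 1 library standing apart from the remaining 5, which made 42 groups. A rate of 1 in 20 would flag 2.1 of these groups, and 11 stood out. That rate need not hold here, because 3p arms with few reads are among the quantities. Where only 1 library of a genotype had reads, its gap was the whole range, however few the reads. The 11 flags are therefore not read as an excess over 2.1. Several of the quantities also share reads and are not independent. Among the guide arms, miR-10a-5p was 1831 RPM in WT library 3 and at most 1519 in the other WT libraries (a gap of 0.626 of the range). miR-99a-5p reached 21478 RPM in db/db library 6, with 18990 RPM the next highest of its genotype (0.663 of the range). let-7e-5p, of the miR-99b cluster, was 548 RPM in the same library, with 387 RPM the next highest (0.639). That library had the fewest reads.

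The other flags concerned 3p arms with few reads. miR-10b-3p was 13.5 RPM in WT library 5 and 0 in the other 5, which put the log2 ratio of the miR-10b arms at 5.54 there; the next lowest in WT was 8.07, a value set by the pseudocount because the 3p arm was at 0. In WT library 4 miR-10a-3p was 39.9 RPM (next 7.89) and miR-99a-3p 18.1 RPM (next 6.23). In WT library 3 miR-99b-3p was 139 RPM (next 53.4) and miR-100-3p 21.2 RPM (next 6.23). In db/db library 4 miR-99a-3p was 9.05 RPM (next 2.76) and miR-100-3p 7.75 RPM, with 0 in the other 5.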

How the results depend on the processing

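The 5 guide arms kept their sign and stayed uncalled under each of 23 alternatives; miR-10b-3p kept its sign under 22, had no adjusted p by DESeq2, and had no value at a mean of at least 10 RPM. miR-10b-5p ranged from -0.70 (without WT library 4) to -0.36 (without db/db library 4), with adjusted p from 0.135 to 0.744; with a replicate block it was -0.53 (limma adjusted p = 0.151). Against 1 miRNA called over all rows, limma called 0 with a pseudocount of 0.1 or 10, no filter, a mean of at least 10 RPM, no trend, or without WT 4 and db/db 6 (44 to 56 at an unadjusted p under 0.05 with the pseudocounts and filters, 36 without a trend, 47 without the 2 libraries). Median-of-ratios scaling gave 2 calls, a replicate block 9 and a factor for sample numbers (1 to 3, 4 to 6) 10; edgeR gave 3 and DESeq2 13. None of these calls was a family member, and leaving out 1 library gave 0 to 7 calls. The cause was not tested. The labels do not say whether same-numbered samples shared more than a number. Over the rows tested, correlations of their deviations were -0.05 to 0.12, and 1 of 6 WT samples was closest to its own number. For single miRNAs a link is not excluded by this, and miR-99b-5p was low in libraries 4 and 5 of both genotypes and in WT library 6. miR-99b-3p turned positive by edgeR (0.00424) and DESeq2 (0.0110), and ranged from -0.49 to 0.0848 with 1 library left out; miR-10a-3p ranged from -0.0423 (without WT library 3) to 1.03. With 1 library left out, the log2 ratio of miR-99a-5p to miR-100-5p differed by 0.19 to 0.37, miR-99b-5p to miR-99a-5p by -0.17 to 0.0415, miR-99a-5p to let-7c-5p by -0.22 to 0.0692, miR-10b-5p to miR-10a-5p by -0.45 (without WT library 4) to -0.15 (without db/db library 4), miR-99b-5p to let-7e-5p by -0.27 (without WT library 1) to -0.03 (without WT library 5), and the miR-10b arms by -2.56 to -1.56. With the replicate block no ratio passed. That test flips the signs of 6 differences between same-numbered samples. It allows so few assignments that a ratio could hardly pass after adjustment, so little is learned from it. Below about 10 RPM values rested on few reads.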
